A study of Mus musculus with 2 samples.

Results

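Chromosome 17 of the mouse carries the major histocompatibility complex and the t-complex, and its open chromatin in LβT2 cells is described here from ATAC-seq peaks. A peak was selected on its position alone: its summit, the base with the most reads in it, had to lie on chromosome 17 of the GRCm38 assembly. That rule took 2830 of the 58519 peaks of replicate 1 (4.84%) and 3009 of the 64984 peaks of replicate 2 (4.63%), or 5839 of 123503 in all. LβT2 is an immortalized mouse line with features of pituitary gonadotropes, the cells that make luteinizing hormone and follicle-stimulating hormone. The cells, at passage 21, received 2 nM gonadotropin-releasing hormone (GnRH) in pulses given every 2 h for 6 h 45 min, 4 pulses in all, and were harvested 45 min after the last pulse, with 4500 cells entering each transposition. There was 1 condition with 2 replicates and 0 control samples, so nothing below measures an effect of GnRH, and no test between groups was possible. The labels do not say whether the replicates came from separate cultures, so the spread between them may be technical. Values are given for each replicate beside the other autosomes except chromosome 14, whose peaks were left out of the comparison.

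ATAC-seq uses a transposase that inserts sequencing adapters into DNA not wrapped in nucleosomes, and a peak is a place where many inserted fragments end. Promoters of expressed genes are usually open, as are many enhancers in introns and between genes. Reads from repeated DNA can also pile up where the reference assembly holds fewer copies than the cells do. The H2 genes of the MHC fall into class I genes, whose products present peptides from inside the cell to CD8+ T cells, class II genes, which present peptides taken up from outside and are mainly expressed in specialised antigen-presenting cells, and a gene-dense class III interval between them that holds complement, cytokine and many housekeeping genes. The t-complex is the proximal stretch of the chromosome in which the variant t haplotypes are found, and it holds several duplicated genes expressed in testis.

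As a check of the label, promoter peaks were sought at 8 gonadotrope marker genes, all on other chromosomes. They were found at 4 in replicate 1, Lhb, Cga and Gnrhr among them, and at 6 in replicate 2, which added Nr5a1 and Foxl2. Fshb and Pitx1 had none in either. Of the 6 markers of other pituitary lineages, Tshb, Prl, Gh, Pomc, Pou1f1 and Tbx19, 0 had a promoter peak. Of all protein-coding genes on the other autosomes except chromosome 14, 31.2% had one in replicate 1 and 44.0% in replicate 2.

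The sequences at the summits of the peaks on which the description turns fall into 2 kinds. The first kind is repeated within the assembly, and is shown because such summits made up much of the densest stretches. In the windows below, the 50 bases around the replicate 1 summit, whose exact copies in GRCm38 were counted on either strand, are in capitals, and all sequences are from the plus strand of GRCm38.
2700054A10Rik intron, chr17:13552859-13552928: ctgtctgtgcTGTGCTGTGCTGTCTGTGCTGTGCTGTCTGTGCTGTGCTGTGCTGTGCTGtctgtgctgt
intergenic peak near AC166110.4, chr17:13306051-13306120: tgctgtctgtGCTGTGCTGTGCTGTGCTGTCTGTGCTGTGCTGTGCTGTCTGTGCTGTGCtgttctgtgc
2700054A10Rik second intron peak, chr17:13590551-13590620: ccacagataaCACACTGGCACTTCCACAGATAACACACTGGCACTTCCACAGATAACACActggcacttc
Sytl3 intron, chr17:6685414-6685483: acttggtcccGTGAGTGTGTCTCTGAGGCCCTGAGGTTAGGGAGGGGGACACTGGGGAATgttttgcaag
Gm29719 intron, chr17:6399733-6399802: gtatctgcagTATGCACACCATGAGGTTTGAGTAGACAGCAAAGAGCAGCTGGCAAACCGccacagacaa
Sos1 intron, chr17:80468641-80468710: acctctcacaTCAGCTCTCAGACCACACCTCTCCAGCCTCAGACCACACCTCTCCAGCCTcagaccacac

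The 50 bases of the 2700054A10Rik intron occurred 4 times, 3 times on chromosome 17 and once on chromosome 6. Those near AC166110.4 occurred 8 times, 4 times on chromosome 17 and 2 times each on chromosomes 13 and 6. The second intron peak of 2700054A10Rik had 7 copies, all on chromosome 17. The Sytl3 and Gm29719 windows had 2 copies each, and in each case the other copy lay in the other gene's neighbourhood within the same stretch. The Sos1 window had 2 copies that lay 68 bp apart.

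The second kind is single-copy by exact match, and is shown for the strongest promoters and for MHC promoters that were open in both replicates. In these 201-bp windows around the replicate 2 summit, capitals mark exact matches, on either strand, to GGGCGG (SP1) or CCAAT (NFY).
Ppp2r1a promoter, chr17:20945132-20945332: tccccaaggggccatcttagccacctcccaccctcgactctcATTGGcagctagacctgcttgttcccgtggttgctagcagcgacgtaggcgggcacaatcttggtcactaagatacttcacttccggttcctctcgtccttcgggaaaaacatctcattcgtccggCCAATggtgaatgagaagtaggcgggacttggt
Khsrp promoter, chr17:57031635-57031835: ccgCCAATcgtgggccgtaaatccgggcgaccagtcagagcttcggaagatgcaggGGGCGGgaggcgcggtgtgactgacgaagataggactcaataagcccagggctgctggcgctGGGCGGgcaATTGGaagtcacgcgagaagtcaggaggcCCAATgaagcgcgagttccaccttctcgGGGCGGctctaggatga
Rnf5 promoter, chr17:34603758-34603958: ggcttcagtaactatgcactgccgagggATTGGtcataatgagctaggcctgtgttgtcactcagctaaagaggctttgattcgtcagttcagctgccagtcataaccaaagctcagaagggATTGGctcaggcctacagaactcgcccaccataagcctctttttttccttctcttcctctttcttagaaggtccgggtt
H2-D1 promoter, chr17:35262914-35263114: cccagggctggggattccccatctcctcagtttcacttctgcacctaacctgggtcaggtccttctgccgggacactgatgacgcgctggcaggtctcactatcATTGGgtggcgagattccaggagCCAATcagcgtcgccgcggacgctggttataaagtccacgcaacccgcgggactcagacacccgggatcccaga
H2-T22 promoter, chr17:36042701-36042901: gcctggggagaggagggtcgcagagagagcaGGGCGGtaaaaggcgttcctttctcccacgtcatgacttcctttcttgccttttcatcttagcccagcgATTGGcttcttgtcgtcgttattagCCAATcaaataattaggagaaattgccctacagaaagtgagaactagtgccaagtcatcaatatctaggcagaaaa
Psmb9 and Tap1 promoter, chr17:34187339-34187539: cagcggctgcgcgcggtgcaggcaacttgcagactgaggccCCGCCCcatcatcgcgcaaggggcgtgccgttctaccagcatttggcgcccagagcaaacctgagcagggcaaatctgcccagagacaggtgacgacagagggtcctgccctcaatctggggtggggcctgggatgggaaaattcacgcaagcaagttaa

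CCAAT matched 2 times in the windows of Ppp2r1a, Rnf5, H2-D1 and H2-T22, and 3 times in that of Khsrp. GGGCGG matched 3 times in the Khsrp window and once each in those of H2-T22 and of Psmb9 and Tap1. Both motifs are common in such windows: among the 590 single-copy promoter summits of chromosome 17 in replicate 2, 47.1% held GGGCGG and 35.9% held CCAAT, against 48.5% and 32.2% on the other autosomes. With up to 10 mismatches allowed over the chromosomes of GRCm38, the 50 bases at the H2-T22 summit matched 12 places, and those at the other 5 summits matched 1 place each. A match to a motif is a description of the letters and not evidence that a factor was bound.

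Chromosome 17 had the highest peak density of the 18 autosomes ranked. It held 30.9 peaks per Mb of sequence without gaps in replicate 1 and 32.8 in replicate 2 (31.8 ± 1.38, SD, n = 2), over 91.7 Mb. The 17 other autosomes together held 18.9 and 21.7 per Mb. Among them the lowest, median and highest densities were 12.7, 17.7 and 26.9 in replicate 1 and 15.3, 20.2 and 30.1 in replicate 2, and chromosome 7 was next after chromosome 17 in both. The ratio of chromosome 17 to the pooled others was 1.63 and 1.51 (1.57 ± 0.08, SD, n = 2). Chromosome 14, left out of the ranking, was denser still, at 72.4 and 72.1 peaks per Mb.

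**Figure D1:**
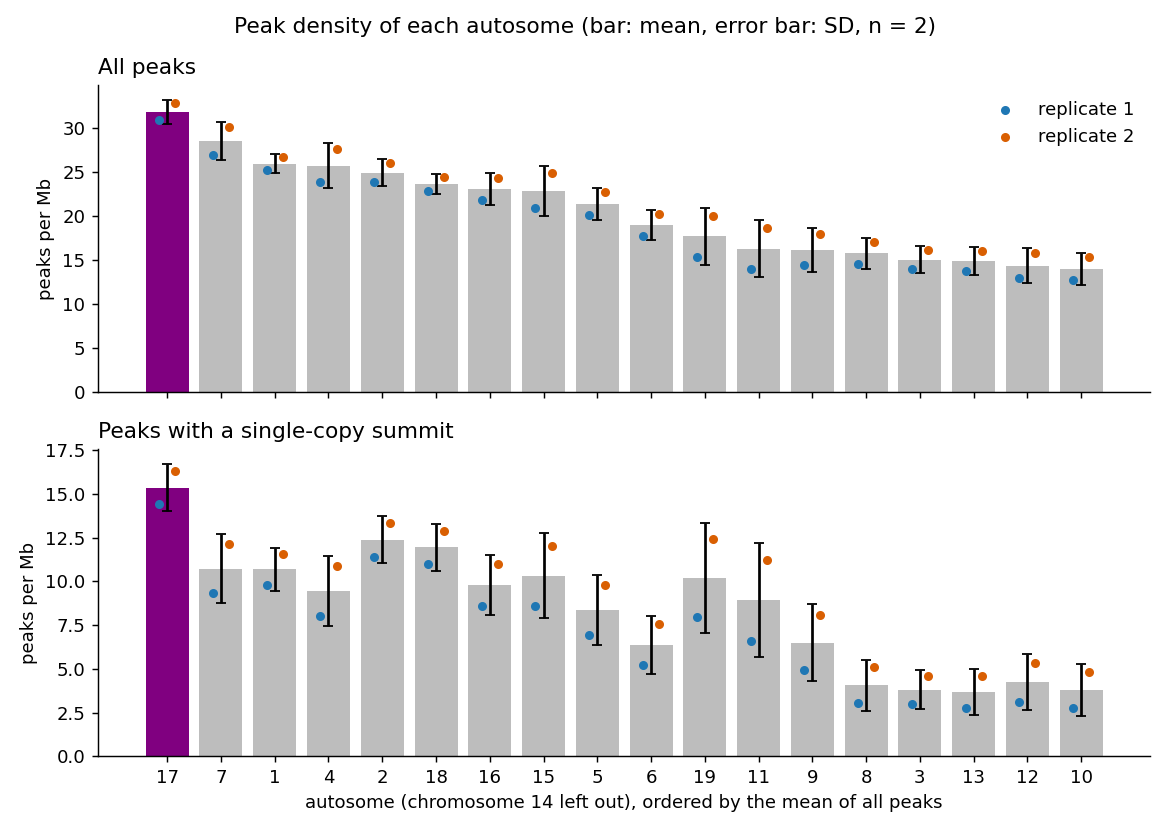
Peaks per Mb of sequence without gaps on each autosome except chromosome 14, for all peaks above and single-copy summits below, with bars for the mean, error bars for the SD (n = 2) and points for the replicates. Chromosome 17, at 30.9 and 32.8 peaks per Mb for all peaks and 14.4 and 16.3 for single-copy summits, stands first in both.

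Among the 18 ranked, chromosome 17 stayed first under each of the following counts per Mb. Chromosome 14, outside the ranking, held more single-copy summits as well, at 21.8 and 22.1 per Mb. Counting single-copy summits alone, chromosome 17 held 14.4 and 16.3 per Mb against 6.70 and 9.20 on the others, again first, with chromosome 2 next at 11.4 and 13.3. Among peaks with a −log10 q of at least 10 it held 4.09 and 7.75 per Mb against 2.07 and 4.45. Leaving out the densest 1-Mb bin of every chromosome, a setting chosen after the values were seen, gave 27.7 and 30.0 per Mb, still first, with chromosome 7 at 25.9 and 29.2. Chromosome 17 is also gene-rich, with 11.5 protein-coding genes per Mb against 8.64 on the others. Per protein-coding gene it held 2.68 and 2.85 peaks against 2.19 and 2.51, which ranked 5 and 7 of 18, so gene content moved with the density; its part in it was not tested.

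Most peaks of chromosome 17 were weak, as elsewhere. The median peak held 14 tags (reads counted by the peak caller at the summit) in replicate 1 and 17 in replicate 2, over backgrounds of 3.05 and 3.54, against 14 and 16 on the other autosomes. The lowest peaks held 10 and 11 tags and the highest 2700 and 2901. Median fold enrichment over the caller's background was 3.70 and 3.97, against 3.70 and 3.75. Peaks with a −log10 q of at least 10 numbered 375 and 711, or 13.3% and 23.6% of the members, against 10.9% and 20.5%. Median peak width was 299 and 340 bp, against 288 and 327 bp, and 27 and 36 peaks were at least 2 kb wide.

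By copy number of the 50 bases at the summit, 1321 and 1498 peaks of chromosome 17 were single-copy (46.7% and 49.8%), against 35.4% and 42.4% on the other autosomes. Summits with 2 to 10 copies were 25.3% and 23.1% against 17.5% and 15.8%, ranking 2 and 1 of 18. Summits with more than 10 copies were 28.1% and 27.1% against 47.1% and 41.8%, the lowest share of the 18 in both replicates. The share of summits in highly repeated sequence was thus low on chromosome 17, and the share in sequence of low copy number was high. These are shares of a larger number of peaks per Mb, and not densities. On a grid of positions every 20000 bp, independent of the peaks, 505 of 4586 positions of chromosome 17 were multi-copy by the same measure, against 11393 of 109139 on the others (10.4%). Copies that differ by a single base within the 50 were not counted.

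The peaks of chromosome 17 lay along its whole length, with 3 dense stretches in its proximal part. Over 92 bins of 1 Mb the median bin held 27.5 peaks per Mb as the mean of both replicates, and 46 bins were within 25% of that median. The sparsest bin, at 62 to 63 Mb, held 10.0. A bin was called dense at 2 or more times the median, that is at 55.0 or more, and 4 bins were. On the other autosomes 5.3% of bins were dense by the same rule, so the number of dense bins was near the background. The stretches lay at 6 to 8, 13 to 14 and 23 to 24 Mb. The bin just inside the threshold, at 23 to 24 Mb, held 65 and 74 peaks. Just outside it lay the bin at 35 to 36 Mb, within the MHC, with 52 and 53 peaks and 62 protein-coding genes, and the bin at 21 to 22 Mb, with 53 and 51.

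**Figure D2:**
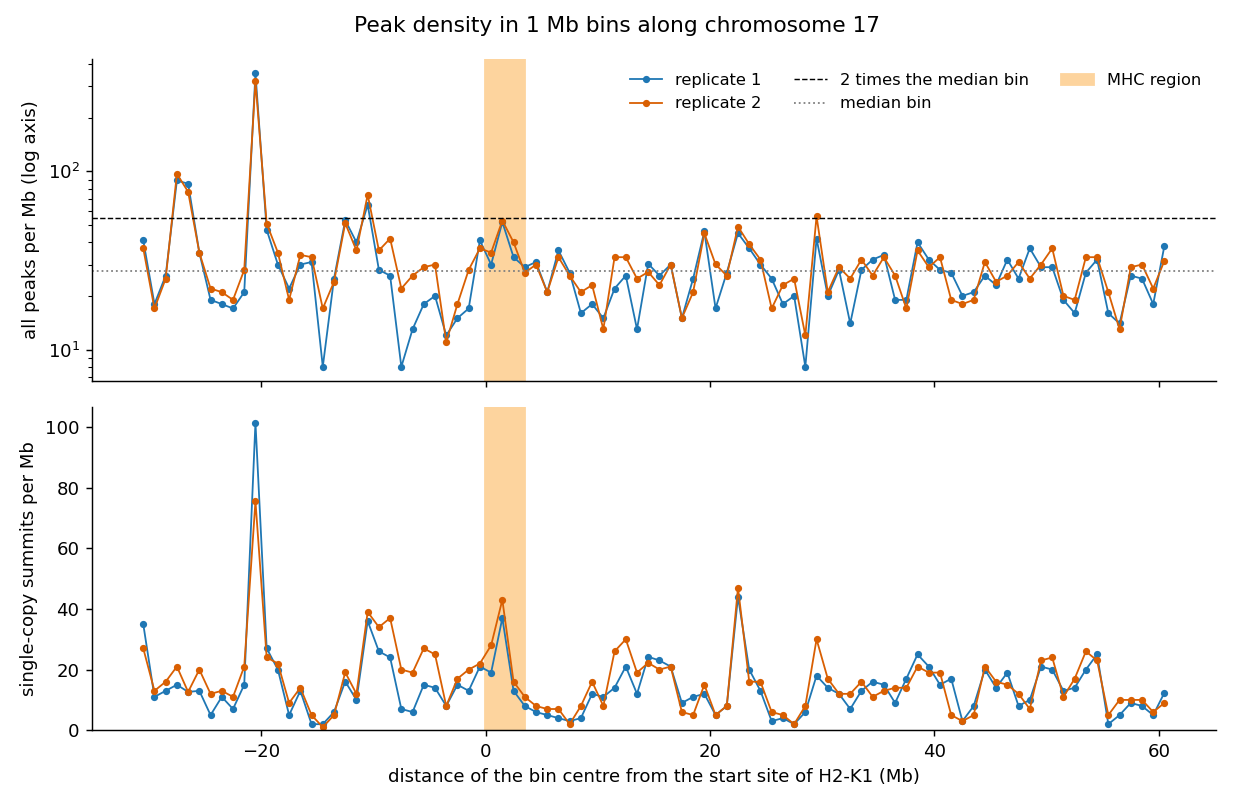
Peaks per Mb in 1-Mb bins of chromosome 17 for each replicate, against distance from the H2-K1 start site in Mb, with all peaks on a log axis above, single-copy summits below, the MHC region shaded, and lines at the median bin and at 2 times it. The 13 to 14 Mb bin stands above every other bin in both panels, at 356 and 320 peaks per Mb with all peaks, while the MHC region holds 36.5 and 40.2.

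The stretch at 13 to 14 Mb held 316 and 284 peaks, 11.2% and 9.44% of those on the chromosome, in 0.887 Mb without gaps. That is 356 and 320 per Mb, 12.3 times the median bin. It has 10 protein-coding genes. Those nearest its 3 highest peaks were Tcp10c and Tcte2 of the t-complex, but at a distance, 48486 bp for Tcp10c and 142312 and 180004 bp for Tcte2. Its first 6 windows of 100 kb, a division made after the values were seen, held 296 and 260 of its peaks, or 547 and 480 per Mb. The fullest window, chr17:13300001-13400000, held 73 and 61.

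Of the summits in the 13 to 14 Mb stretch, 71.5% and 76.4% were multi-copy, and 206 and 194 had 2 to 10 copies. Another copy lay within the same stretch for 191 and 182 of those, and in the 6 to 8 Mb stretch for 99 and 88, while 10 and 6 had one on another chromosome. Single-copy summits numbered 90 and 67 (101 and 75.5 per Mb), which was still more than in any other bin of the chromosome. Peaks there were wider than the chromosome's median, at 444.5 and 526.5 bp, and 82.9% and 81.0% of them overlapped a peak of the other replicate. By feature, 109 and 105 were intergenic, 81 and 64 intronic, and 34 and 25 within 1 kb of a start site.

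The stretch at 6 to 8 Mb held 170 and 170 peaks, 87.2 per Mb in both replicates. It has 24 protein-coding genes, among them Sytl3, a synaptotagmin-like gene, Rsph3b, a radial spoke protein of cilia, and the dynein light chain genes Dynlt1a, Dynlt1b, Dynlt1c and Dynlt1f. Multi-copy summits made up 84.1% and 80.6%, with 27 and 33 left as single-copy. Of the 126 and 124 with 2 to 10 copies, 75 and 75 had another copy inside the stretch and 52 and 48 had one at 13 to 14 Mb, so the densest stretches shared sequence with each other. Introns held 45.3% and 47.6% of its peaks. The highest were an intron peak of Sytl3 with 43 and 77 tags, an intron peak of Gm29719 with 42 and 76, and an intron peak of Rsph3b with 64 and 55.

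The stretch at 23 to 24 Mb was of another kind, with 35 protein-coding genes and with promoters as its 3 highest peaks. It held 65 and 74 peaks, of which 44.6% and 47.3% were multi-copy, and most of those, 22 and 24, had more than 10 copies. By feature, 27 and 39 were intergenic, the largest class, and 20 and 22 lay within 1 kb of a start site. Its strongest peaks were at the promoters of Cldn9, a tight junction claudin, with 34 and 57 tags, of Hcfc1r1, a regulator of host cell factor, with 29 and 60, and of AC154766.4, whose nearest coding gene is Zfp213, with 30 and 50.

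The highest peaks of chromosome 17 were far above the rest and lay in repeated DNA. The highest, chr17:13549970-13553214 in replicate 1, lay in an intron of 2700054A10Rik and rose 667-fold and 640-fold over background (653 ± 19.2, SD, n = 2), with 2700 and 2901 tags. The next, chr17:13305949-13306275, was intergenic, 24662 bp from the nearest start site, that of AC166110.4. It had folds of 255 and 247 (251 ± 5.55) from 1030 and 1118 tags. A second intron peak of 2700054A10Rik, chr17:13585561-13591608, had folds of 99.3 and 90.2 (94.7 ± 6.42). Another peak of the same stretch, chr17:13654609-13655297, had folds of 61.7 and 61.1.

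Within 201 bp of their summits these peaks were built of short tandem repeats. The window of the highest peak matched itself at a shift of 38 bp over 85.9% and 87.1% of its bases, the second intron peak at 23 bp over 92.1% in both replicates, and the peak at chr17:13654609-13655297 at 46 bp over 85.8% and 94.4%. The intergenic peak near AC166110.4 reached 71.4% and 71.9% at 5 bp. Windows with a self-match of 80% or more at a shift of up to 60 bp made up 4.56% and 3.39% of the chromosome's peaks, 129 and 102, against 3.21% and 2.80% elsewhere. In the whole 13 to 14 Mb stretch they made up 6 of 316 and 4 of 284 peaks.

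The third highest peak, chr17:39842992-39848833, 5842 bp wide, covered a ribosomal RNA block annotated as CT010467.1 (rRNA), Gm26917, Gm42418 and AY036118, and, in RefSeq, the pseudogene Rn18s-rs5. It had folds of 117 and 177 (147 ± 42.9, SD, n = 2) from 471 and 803 tags. Its summits were single-copy by exact match, but the 50 bases at the replicate 2 summit matched 5 places with up to 5 mismatches.

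The remaining peaks among the 10 highest included promoters. An intron peak of the long non-coding gene Gm26561, chr17:70963582-70963894, had folds of 37.0 and 52.9. It was single-copy by exact match only, since its 50 bases matched 3 places with up to 5 mismatches. The promoter of Ppp2r1a, the scaffold subunit of protein phosphatase 2A, had folds of 20.5 and 33.3 (26.9 ± 9.05) from 82 and 150 tags. The promoter of Khsrp, a splicing and mRNA decay factor, had folds of 19.8 and 31.1 (25.4 ± 8.01) from 79 and 140 tags. An intron peak of Sos1, an exchange factor that activates Ras, chr17:80468302-80468880, had folds of 21.2 and 25.1 at a summit of 2 copies. An intergenic peak, chr17:17178527-17179699, held 68 and 126 tags, also at 2 copies. Its nearest coding gene, Zfp97, lay 57749 bp away. Ranked among single-copy summits, the promoter between Rnf5, a ubiquitin ligase, and Agpat1, an enzyme of phospholipid synthesis, was among the 5 highest, chr17:34603385-34605164, with folds of 17.3 and 23.8 (20.5 ± 4.62).

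Taken by feature, promoter peaks were slightly more common on chromosome 17 than on the other autosomes and intergenic peaks less common. Both orders turned around among single-copy summits, the intergenic one by less than the spread between replicates. Summits within 1 kb of an annotated start site numbered 553 and 666, or 19.5% and 22.1% (20.8 ± 1.83, SD, n = 2), against 17.1% and 21.2% on the others, which ranked 5 and 7 of 18. A further 269 and 264 lay 1 to 3 kb away, 9.51% and 8.77% against 6.38% and 6.56%, ranking 2 in both. Introns held 725 and 762, or 25.6% and 25.3% (25.5 ± 0.21), against 24.7% and 24.2%. Intergenic summits numbered 1191 and 1218, or 42.1% and 40.5% (41.3 ± 1.14), against 49.3% and 45.7%, ranking 16 and 15. The excess in the promoter share, at most a few percentage points, was of the order of the spread between the replicates.

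**Figure D3:**
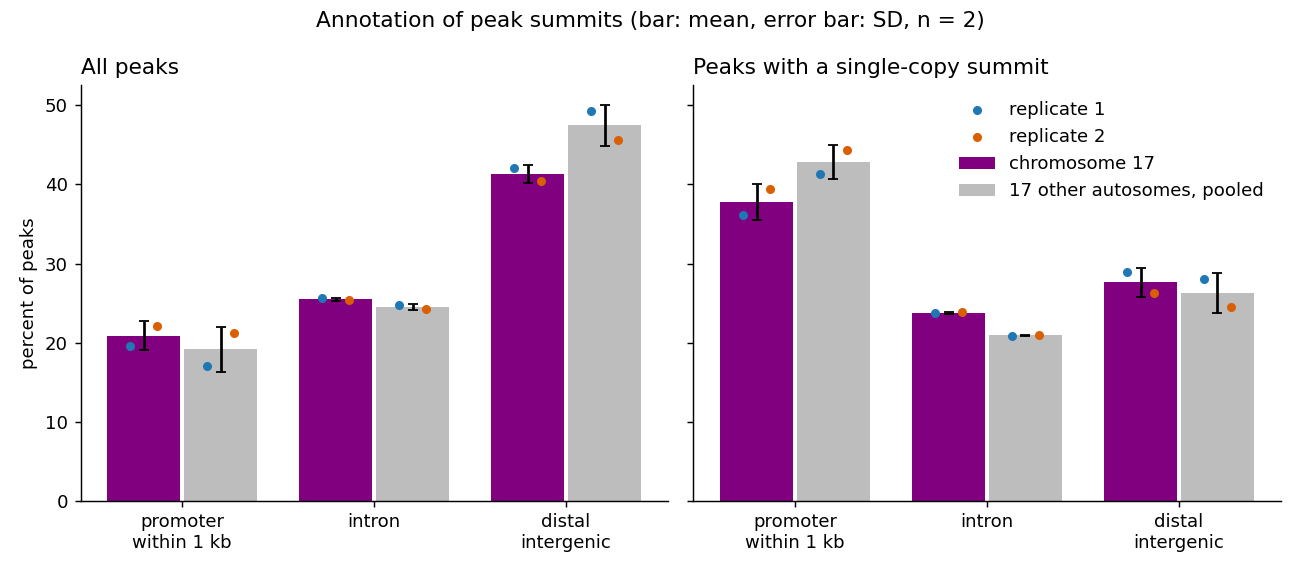
Share of peaks, in percent, at promoters, introns and distal intergenic sequence, on chromosome 17 and on the other autosomes except chromosome 14, for all peaks and single-copy summits, with bars for the mean, error bars for the SD (n = 2) and points for the replicates. Promoter shares of all peaks are 19.5% and 22.1% on chromosome 17, and 36.2% and 39.4% among single-copy summits, where the other autosomes reach 41.3% and 44.4%.

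Among single-copy summits of chromosome 17 the promoter share was 36.2% and 39.4%, against 41.3% and 44.4%, ranking 16 and 14. The intronic share there was 23.7% and 23.8% against 20.9% and 21.0%, ranking 5 and 3, and the intergenic share 28.9% and 26.3% against 28.0% and 24.5%. Among multi-copy summits 4.97% and 5.03% were promoters and 53.6% and 54.5% intergenic, against 61.0% and 61.3% intergenic elsewhere. The intergenic share was thus lower than elsewhere among multi-copy summits and higher among single-copy ones. The single-copy excess was smaller than the spread between replicates, and chromosome 17 ranked 8 and 7 of 18 there.

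Per Mb of sequence, promoters, introns and intergenic sequence of chromosome 17 all held more peaks than those of the pooled other autosomes. Promoter sequence within 1 kb held 78.4 and 94.5 peaks per Mb against 51.7 and 73.4, ratios of 1.52 and 1.29. Sequence 1 to 3 kb from a start held 26.3 and 25.8 against 12.4 and 14.7, ratios of 2.11 and 1.76. Introns held 23.6 and 24.8 against 13.4 and 15.0, and intergenic sequence 30.5 and 31.2 against 20.9 and 22.2. The promoter ratios within 1 kb were below those of all peaks, 1.63 and 1.51. Chromosome 17 also had more promoter sequence, with 7.69% of it within 1 kb of a start against 6.25%, ranking 3 of 18. Of its sequence, 33.5% was intronic against 35.0%, and 42.6% intergenic against 44.6%.

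Of the peaks of chromosome 17, 1683 in replicate 1 (59.5%) and 1609 in replicate 2 (53.5%) shared 1 bp or more with a peak called in the other library. On the other autosomes 58.1% and 49.4% did. Promoter peaks were shared more often than the rest, at 87.3% and 69.4%, against 52.8% and 46.7% for introns and 50.4% and 47.5% for intergenic peaks. The other autosomes had the same order, at 87.8% and 59.4%, 54.6% and 47.8%, and 50.2% and 46.5%. Single-copy summits were shared at 64.7% and 53.3%, below the 70.6% of the other autosomes in replicate 1 and above their 50.1% in replicate 2. Multi-copy summits were shared at 54.9% and 53.7%, against 51.2% and 48.9%.

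**Figure D4:**
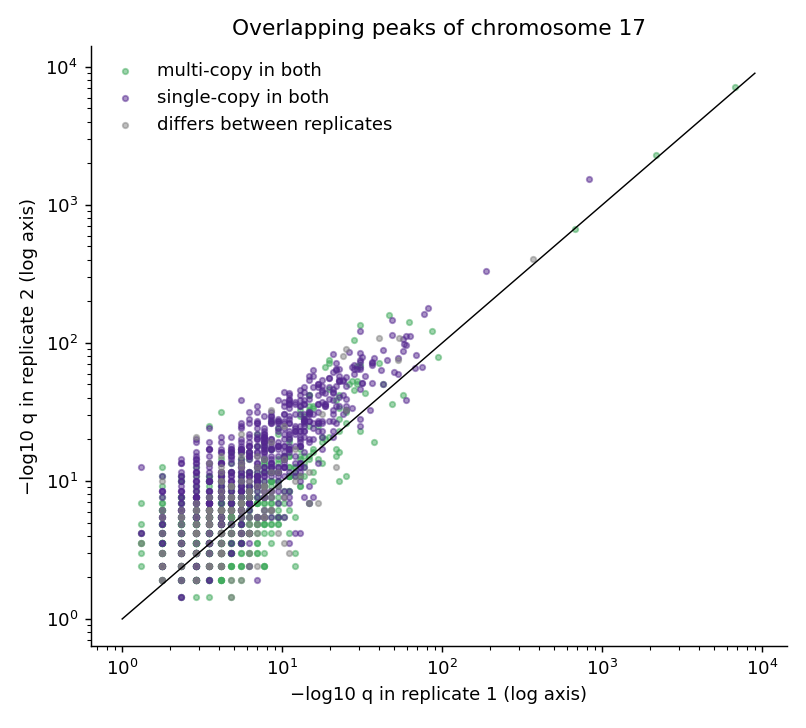
The −log10 q of each overlapping pair of chromosome 17 peaks in replicate 2 against replicate 1, on log axes, coloured by copy number at the summit, with the line of equal values. Of the 1562 pairs, 1207 lie above the line, with replicate 2 higher.

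For 1562 pairs of overlapping peaks, the Spearman correlation of −log10 q between replicates was 0.713. It was 0.785 over 701 single-copy pairs and 0.616 over 685 multi-copy pairs. These are correlations across peaks, which share a library and are not independent. Replicate 2 was higher in 1207 pairs, 77.3%, with 88.0% of single-copy pairs and 68.3% of multi-copy pairs in that direction.

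The MHC region, taken from the first to the last gene named H2 (chr17:33974659-37483552, 3.51 Mb), held 128 and 141 peaks, 4.52% and 4.69% of the chromosome's. Its density was 36.5 and 40.2 per Mb against 30.6 and 32.5 for the rest of the chromosome, a ratio of 1.19 and 1.24 (1.21 ± 0.03, SD, n = 2), and it contained no dense bin when all peaks of both replicates were counted. Its bin at 35 to 36 Mb was dense in replicate 1 alone, as was the bin at 21 to 22 Mb outside the region. The MHC bin was also dense among peaks with a −log10 q of at least 10 (15.5 per Mb, mean of both replicates). Under that limit 18 bins were dense, those at 6 to 8 Mb included. Among single-copy summits the MHC bin was 1 of 7 dense bins (37 and 43), and the bins at 6 to 8 Mb were not dense. Against the rest without its dense bins, a comparison added after the values were seen, the ratio was 1.43 and 1.45. For single-copy summits, of which the region held 76 and 93, the ratio to the whole rest, dense bins included, was 1.53 and 1.66. The region is gene-dense, with 49.3 protein-coding genes per Mb against 10.0. Per gene it therefore held few peaks, 0.740 and 0.815 against 3.06 and 3.25.

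Promoters made up 62 and 72 of the MHC peaks (48.4% and 51.1%), and introns 5 and 11. By part, the class III interval held 34 and 38 peaks, with 76.5% and 76.3% at promoters. The class II interval held 10 and 12 peaks. The distal class I interval held 81 and 88, of which 50.6% and 46.6% were multi-copy, against 17.6% and 2.63% in class III. The H2-K interval at the proximal end held 3 and 3.

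Over the whole chromosome, 458 of the 1056 protein-coding genes had a promoter peak in replicate 1 (43.4%), 547 in replicate 2 (51.8%) and 440 in both (41.7%). The background on the other autosomes was 31.2% in replicate 1, 44.0% in replicate 2 and 29.8% in both, and chromosome 17 ranked 3, 4 and 3. A peak between 2 divergent genes counted for each of them. In the MHC region 55 of 173 genes (31.8%) had a promoter peak in both, against 385 of 883 (43.6%) on the rest of the chromosome. The 19 olfactory receptor genes of the region held 0, and without them, a count made after the values were seen, the share was 55 of 154 (35.7%).

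The class I genes were open at some promoters and not at others. Of 21 listed, 6 had a promoter peak in both replicates, H2-D1, H2-T22, H2-M3, H2-K2, H2-Q6 and H2-T23, while 12 had none in either. The 6 are 28.6% of the list, near the 31.8% of all protein-coding genes of the MHC region. On the whole chromosome the share was 41.7%. The list also holds pseudogenes, which those 2 shares leave out. H2-D1, a classical class I gene, had folds of 7.90 and 8.16 from 31 and 36 tags, and H2-T22, a non-classical one, had a mean fold of 8.85 ± 3.08 (SD, n = 2) from 26 and 49 tags. H2-M3, which presents formylated peptides, had 6.67 and 7.50, and the annotated pseudogene H2-K2 4.44 and 6.61. H2-K1, the other classical gene, had a peak in replicate 1 alone, with 13 tags and a fold of 3.46. These were just below the chromosome's medians of 14 tags and 3.70 in that replicate. H2-Q4 and H2-Q10 had one in replicate 2 alone. H2-Q6 and H2-T23 had the same folds, 3.95 and 3.31, and 2-copy summits in at least 1 replicate. Class I genes are close copies of each other, so reads at them can be split or misplaced, and a gene without a peak is not shown to be closed.

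**Figure D5:**
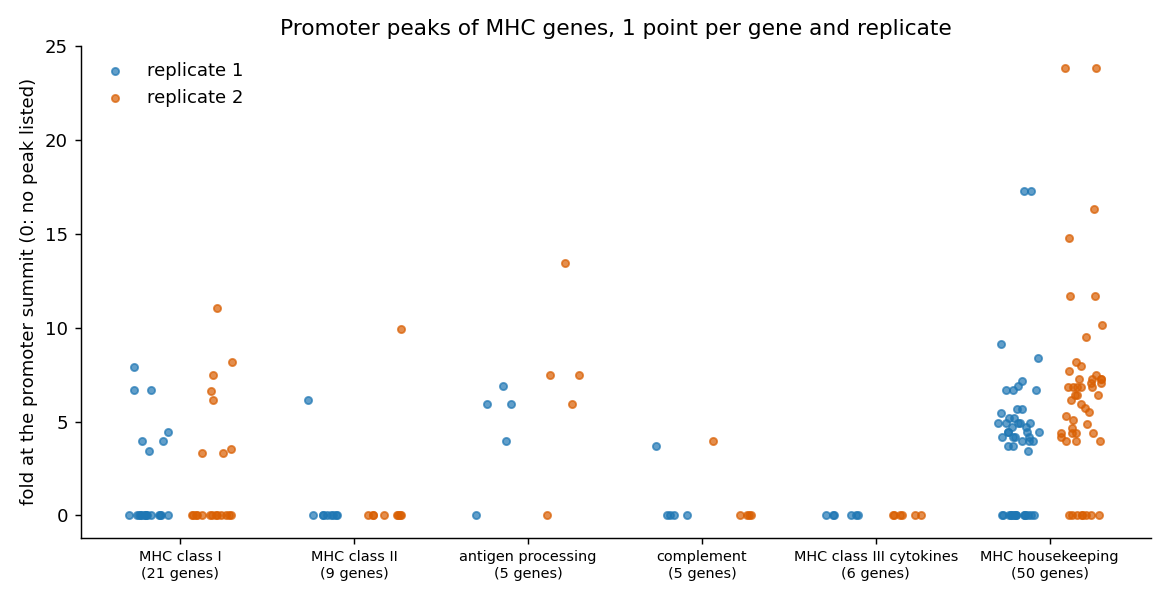
Fold enrichment at the promoter peak of each listed MHC gene in replicate 1 and replicate 2, by group of genes, with genes without a peak at 0. Class II genes other than H2-DMa and the class III cytokine genes are all at 0, while Rnf5 and Agpat1 stand highest at 17.3 and 23.8.

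Among genes that prepare peptides for class I molecules, 4 of 5 listed had a promoter peak in both replicates, from 3 peaks. Over the whole chromosome 41.7% of genes did. Tap1, a subunit of the peptide transporter, and Psmb9, an immunoproteasome subunit, shared a peak with folds of 5.93 and 7.50. Tapbp, the chaperone tapasin, had 6.91 and 13.4 from 27 and 60 tags, and Psmb8, another immunoproteasome subunit, had 3.95 and 5.95. Tap2, the other transporter subunit, had none.

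Of 9 class II genes, 1 had a promoter peak, H2-DMa, part of the peptide exchange factor of class II molecules, with folds of 6.17 and 9.92 from 24 and 44 tags. The antigen-presenting class II chains had none. Of 5 complement genes, C2 alone had a peak in both, with folds of 3.70 and 3.97. None of the 6 class III cytokine entries had one in either replicate. Of all protein-coding genes, 41.7% on the chromosome and 31.8% in the MHC region had one in both. The lowest peaks held 10 and 11 tags, so openings below that were not detectable at this depth.

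A list of 50 other genes in or just before the MHC region, most of them housekeeping genes, was chosen by name and does not cover the region. Of these, 33 had a promoter peak in both replicates (66.0%), against 31.8% of all genes of the region and 41.7% of those of the chromosome. A further 11 had one in 1 replicate and 6 in neither, the last being Ring1, H2-Ke6, Pbx2, Clic1, Ddah2 and Flot1. Some of these genes shared a peak, such as Wdr46 with Pfdn6 and Stk19 with Dxo, so the 33 genes stand for fewer peaks. The highest was shared by Rnf5 and Agpat1, with 69 and 107 tags. Ppp1r11, an inhibitor of protein phosphatase 1, had folds of 9.14 and 16.3, and Mdc1, a DNA damage checkpoint protein, had 8.40 and 14.8. In each of these replicate 2 was the higher.

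Genes of signalling and early response on chromosome 17 were open at 10 of 18 promoters in both replicates, where 41.7% of all genes of the chromosome and 29.8% of those on the other autosomes were. Ppp2r1a had the highest, followed by Nfya, a subunit of the CCAAT-binding factor, with folds of 10.4 and 16.3. Rps6ka2, a kinase downstream of ERK, held 38 and 49 tags, and Map3k4, a stress-activated kinase, had folds of 7.90 and 7.28. Srf, the serum response factor, had 6.91 and 7.06, and Dusp1, a phosphatase of MAP kinases, 4.44 and 5.29. Prkce, a protein kinase C, had 3.21 and 5.07. Mapk14, Ier3, Pim1, Cdkn1a and Tgif1 had a peak in replicate 2 alone, and Mapk13, Sos1 and Adcyap1 had none at the promoter. The intron of Sos1 nonetheless held the peak described above.

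The receptors of the gonadotropins lie on this chromosome. Lhcgr and Fshr, which gonads and not gonadotropes are known to use, had no promoter peak in either replicate. Six2, a homeobox factor, had folds of 3.70 and 7.72, while its neighbour Six3 had none. Of 20 chromatin and transcription factor genes, 12 had a peak in both, against 41.7% of all genes of the chromosome. Among them were Cebpz at 8.89 and 16.3, Chaf1a, a subunit of chromatin assembly factor 1, at 6.67 and 12.3, and Tbp, the TATA-binding protein, at 5.68 and 7.72. Epas1, Tead3, Zfp57, Pou5f1 and Notch3 had none.

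Of 14 t-complex genes, 11 had a promoter peak in both replicates, against 41.7% of all genes of the chromosome, but in only 4 of those were the summits single-copy in both. Tcp1, a subunit of the chaperonin that folds actin and tubulin, had folds of 9.88 and 19.8 from 39 and 89 tags. Tcte3, a dynein light chain, had 8.15 and 16.8 at a summit of 3 copies. Dynlt1a, Dynlt1b, Dynlt1c and Dynlt1f, copies of a dynein light chain gene, had folds of 4.44 to 6.91 in replicate 1 and of 4.63 to 10.6 in replicate 2. T, the mesoderm factor brachyury, and Tcp11 had none. In the imprinted Igf2r cluster, the non-coding RNA gene Airn had folds of 4.94 and 2.87 and Slc22a3, a cation transporter, 3.95 and 3.09, while Igf2r itself had a peak in replicate 2 alone.

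Gene families differed widely in a count made after the values were seen. Of 46 zinc finger genes named Zfp on the chromosome, 39 had a promoter peak in both replicates, where 41.7% of all its genes did. Of 53 olfactory receptor genes, 0 had one in both and 2 had one in replicate 1. Of 32 Vmn2r and 14 Vmn1r pheromone receptor genes, 0 had one in both.

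In the 201 bp around summits, 6 motifs were searched on both strands as exact letters, GGGCGG (SP1), CCAAT (NFY), AGGGGGCGC (CTCF core), TGACGTCA (CRE), TGANTCA (AP1) and CAAGGTCA (SF1). None of these contains another. Over all peaks of chromosome 17, GGGCGG was held by 12.1% and 13.8%, against 11.4% and 13.9% on the other autosomes, and CCAAT by 32.3% and 31.7% against 34.3% and 33.1%. TGANTCA was held by 5.02% and 5.12% against 4.79% and 4.95%. CAAGGTCA, read by the gonadotrope regulator SF1, was held by 1.20% and 2.43% against 1.42% and 2.13%. At single-copy intronic and intergenic summits it was held by 2.45% and 5.46%, against 4.66% and 6.84%, the lower value on chromosome 17 in both replicates. The replicates of chromosome 17 differed from each other by more than that.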

How the data were processed

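Per the labels and the study's methods, ATAC-seq reads were aligned to GRCm38 (mm10) with Bowtie2 and peaks were called by the authors with MACS2 for each replicate on its own, with no model, reads extended by 200 bp, duplicates removed, no input control named and a fly genome size preset. Versions are not given in the sources used here. The fly preset raises the background that MACS2 assumes, which bears on folds, q-values and the lowest peak called. The deposited peak lists give a score, a fold (ratio of signal to background) and −log10 p-values and q-values at each summit. The score, 10 times the −log10 q, was not used. The lists hold no read totals, so depth is known only through the tag counts at summits, which were recomputed, to within rounding, from the deposited fold and −log10 p-values.

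Peaks were assigned by summit to features of GENCODE vM21 in a fixed order of precedence, with RefSeq as an alternative. The copy number of a summit is the number of exact matches of its 50 bases in GRCm38. For 8 named summits, copies with mismatches were also counted, a step added after the values were seen. Density was per Mb without gaps. No test was run, since there were 2 replicates of 1 condition, and values are given as mean ± SD or per replicate. Named peaks were the 10 that ranked highest by −log10 q as a mean of both replicates, the 5 highest with single-copy summits and the 3 highest of each dense stretch. Of the genes in 12 lists, those with a promoter peak in both replicates or of a defining role were given with values. A few of these genes are not reported here. The members and lists were chosen with earlier results of these data known. Alternatives were stricter peaks, single-copy summits, RefSeq, other promoter and overlap limits, shifted bins, chromosome 14 included and each replicate left out. The work used numba 0.67.0, matplotlib 3.10.9, scipy 1.17.1, pandas 2.3.3 and numpy 2.4.6 under Python 3.11.15, and the steps passed 5 checks on simulated data.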

Additional observations from a re-analysis of the deposited data

How the results depend on the processing

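Of 50 values recomputed, 25 stayed within the spread between replicates or within 1.5 times of a count, and 25 moved. For results given as a mean, leaving out 1 of 2 replicates always stays within that spread. Including chromosome 14 cannot move the shares of chromosome 17, nor can a promoter limit of 2 kb move its intronic and intergenic shares. Such values count among the 25 that stayed and do not measure stability. None of the 50 changed sign. With single-copy summits, though, the order against the other autosomes turned for the promoter share (37.8% against 42.8%). It also turned for the intergenic share (27.6% against 26.3%) and the shared fraction (52.1% against 54.6%), by less than the spread between replicates. The density ratio of chromosome 17 to the other autosomes, 1.57, was 1.86 for peaks with a −log10 q of at least 10, 1.96 for single-copy summits, 1.38 with chromosome 14 included and 1.18 per protein-coding gene, and 1.51 to 1.63 with a replicate left out. The promoter share, 20.8%, was 50.8%, 37.8%, 18.0% and 25.5% under strict peaks, single-copy summits, RefSeq and a 2-kb limit (19.5% to 22.1% with a replicate left out). The intronic share, 25.5%, was 19.9%, 23.8% and 24.2% under the first 3 of these (25.3% to 25.6%), and the intergenic share, 41.3%, was 22.6%, 27.6% and 50.9% (40.5% to 42.1%). The shared fraction, 56.5% (53.5% to 59.5%), was 68.2% for strict peaks, but with an SD of 29.9 (n = 2), so the replicates differed widely. It was 52.1% with both lists limited to single-copy summits before overlap. With an overlap of 50% of both peaks it was 35.5%, and with summits within 100 bp 32.3%. The MHC ratio, 1.21 (1.19 to 1.24), was 1.54 ± 0.39 (SD, n = 2) for strict peaks and 1.60 ± 0.09 for single-copy summits. Dense bins numbered 4, but 18 among strict peaks and 7 among single-copy summits (4 to 6). Genes with a promoter peak in both replicates numbered 440, but 202 with strict peaks (458 to 547 with 1 replicate alone). In these moves the cause was not tested.

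Of 3 alternatives chosen after seeing the data, leaving out the densest bins gave a density ratio of 1.47, the median bins gave 1.56, and the MHC ratio against the rest without dense bins was 1.44. No paired analysis was possible because there was only 1 group. Depth limits the lists to peaks of at least 10 and 11 tags. With 2 replicates the SD itself is imprecise, ranks among 18 autosomes carry no test, and copies with mismatches were sought only for the single-copy summits of 8 named peaks.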
